A study of Homo sapiens with 6 samples.

Results

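The genes described here build the precursor of N-linked glycans in the endoplasmic reticulum (ER), load it onto proteins and begin to trim it. They are MPDU1, a membrane protein needed for the use of mannose-phosphate-dolichol and glucose-phosphate-dolichol, and 40 genes listed with it by function. All 41 symbols matched 1 row each of a table of 39771 gene rows. Their RNA was measured by RNA sequencing in MOLM-13, a human acute myeloid leukaemia line with the MLL-AF9 translocation, in 6 libraries. The 2 control libraries came from cells with a non-targeting lentiviral hairpin (shNT) and 4 from cells with a hairpin against LAMP5 (shLAMP5), a lysosome-associated membrane protein. All cells had been transduced with lentivirus and selected with puromycin. The hairpin and the harvest time of the single shLAMP5 libraries, and whether replicates were separate cultures, are not stated in the labels. The spread between libraries may therefore be technical, or may mix hairpins or times. MPDU1 had drawn attention because its difference between shNT and shLAMP5 was among those with the smallest p-values, and the other members were listed around it. Differences between the groups are therefore given as descriptions of these libraries.

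N-glycan assembly starts in the cytosol, where phosphomannose enzymes and GDP-mannose pyrophosphorylase activate mannose. Dolichol, a long isoprenoid lipid, is made and phosphorylated separately. Sugars are added to dolichol pyrophosphate on the cytosolic face of the ER membrane, the oligosaccharide is flipped, and further mannoses and glucoses are added in the lumen from dolichol phosphate mannose and dolichol phosphate glucose. Oligosaccharyltransferase then moves the whole glycan onto asparagines of new proteins, and glucosidases remove the outer glucoses so that the lectin chaperones calnexin and calreticulin can bind. Lysosome-associated membrane proteins are heavily N-glycosylated.

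Values were read as TPM (a transcript abundance scaled for transcript length and, by definition, to a fixed total per library), which allows levels of different genes to be compared. The deposited columns themselves summed to between 897026 and 912565. Read depth is unknown. Each library had between 12192 and 12661 rows at 1 TPM or more. LAMP5 measured 170 and 282 TPM in shNT and 65.6 to 86.7 TPM in shLAMP5, lower in all 4 knockdown libraries in the direction their labels give. The leukaemia markers PTPRC (20.2 to 63.1 TPM), SPI1 (205 to 466 TPM) and FLT3 (50.6 to 145 TPM) were present in every library, while CD14 lay at or below 1.39 TPM. Of other cell types, 4 T cell markers matched and summed to 2.27 to 3.85 TPM in shNT and 1.89 to 8.76 TPM in shLAMP5, mostly from CD3D, with CD3E at or below 0.0489 TPM. The 4 B cell markers summed to at most 1.49 TPM, and the 6 erythroid and megakaryocytic markers to at most 1.02 TPM, with PF4 and PPBP at 0. The 7 packaging cell and fibroblast markers summed to 354 to 573 TPM in shNT and 347 to 717 TPM in shLAMP5. VIM gave 317 to 680 TPM of this, KRT18 16.8 to 23.6 TPM and COL1A1 0.696 to 5.91 TPM, each with overlapping groups. KRT8 did not overlap, with 7.88 and 7.13 TPM in shNT and 10.1, 13.0, 13.9 and 8.19 TPM in shLAMP5 1 to 4. COL1A2 and DCN did not exceed 0.452 TPM, and COL3A1 was at 0. The part of these markers in the results was not tested. The library shLAMP5 2 stood apart in its median level. Over all 13072 genes tested, the median of log2(TPM + 1) minus the shNT mean was -0.21 in shLAMP5 2, and all other libraries fell between -0.027 and 0.048.

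Promoter sequence was available from RefSeq (build GRCh38.p14) for 36 of the 41 members, as windows of 300 bases reaching from 250 bases before to 50 bases after the transcription start. The study's own build was hg19, so these coordinates do not carry over to it. MPDU1 lies on chromosome 17, and its upstream 250 bases (chr17:7583397-7583646, plus strand) are shown because MPDU1 is the member with the widest difference between the groups. Its window held none of the motifs searched, so no base is in capitals.
MPDU1: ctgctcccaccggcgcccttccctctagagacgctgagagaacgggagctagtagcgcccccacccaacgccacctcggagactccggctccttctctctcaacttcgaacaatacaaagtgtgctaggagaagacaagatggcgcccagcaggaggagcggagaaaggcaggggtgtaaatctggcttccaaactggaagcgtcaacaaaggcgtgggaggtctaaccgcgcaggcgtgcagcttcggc

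Among the dolichol synthesis genes, 4 of 5 held the E-box CACGTG, the core site of MYC and other basic helix-loop-helix factors, within the window. Over all members it was found in 7 of 36 windows (19.4%), against 10.6% of the 9283 windows of genes tested here and 7.43% of all 27305 windows. Members and genes tested were alike in CpG content, with a median of 25 and 26 CpG per window. The matches, in capitals with up to 12 flanking bases, are shown because they set these 4 genes side by side. DHDDS had matches at chr1:26432105-26432134 and chr1:26432142-26432171 (plus strand), NUS1 at chr6:117675258-117675287 (plus), SRD5A3 at chr4:55346026-55346055 (plus), and DOLK at chr9:128947657-128947686 and chr9:128947610-128947639 (minus).
DHDDS, upstream match: ctggtctcccagCACGTGgcctggagccca
DHDDS, downstream match: gccccgctcggtCACGTGagcctggctctc
NUS1: cgcattgaagacCACGTGtgccttgctggg
SRD5A3: aagagtggcagaCACGTGgtctcgtctgtt
DOLK, upstream match: agacgccatgccCACGTGaccgctcgcccc
DOLK, downstream match: cggggatttcgtCACGTGacgttgccgcgg

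The ER stress response element (ERSE, CCAAT and CCACG with 9 bases between them, searched on both strands as were all motifs) was found in ALG12 alone of the 36 members (2.78%), against 0.151% of the windows of genes tested. It lay at chr22:49918542-49918584 (minus strand, flanks included). CRELD2, an ER stress gene, is the next gene in the RefSeq order, on the opposite strand, with its start 196 bases from that of ALG12. The match is shown in capitals, with the CCAAT box at its left end.
ALG12: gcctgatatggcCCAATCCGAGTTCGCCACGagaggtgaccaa

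The related element ERSE-II (ATTGG and CCACG with 1 base between them) was in no member window (0.097% of windows of genes tested), the core TGACGTGG in DHDDS only (2.78% of members, 0.926% of windows of genes tested), and the ETS-factor site CCGGAAG in 11 members (30.6%, against 20.6%). A match is a stretch of letters and not evidence of binding.

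In control cells the members spanned a wide range of levels. RPN2, a subunit of oligosaccharyltransferase, was the most abundant at 235 and 257 TPM, followed by the small subunit OST4 at 217 and 236 TPM, and the values of these neighbours in the order overlapped. DAD1 (208 and 190 TPM) and RPN1 (212 and 183 TPM) came next and also overlapped, both below OST4. GANAB, the catalytic subunit of glucosidase II, and STT3A, a catalytic subunit of the transferase, had means of 164 ± 20.8 and 163 ± 5.46 TPM (SD, n = 2) and could not be ordered. OSTC (115 ± 10.1 TPM) and STT3B (108 ± 4.56 TPM) closed the group of 8 members that reached 100 TPM in both shNT libraries, of which 7 belong to the transferase. At the other end, 8 members lay under 10 TPM in both shNT libraries. They were the glucosyltransferases ALG6, ALG10 and ALG10B, the mannosyltransferases ALG9 and ALG11, ALG14, the dolichol kinase DOLK, and TUSC3.

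**Figure D1:**
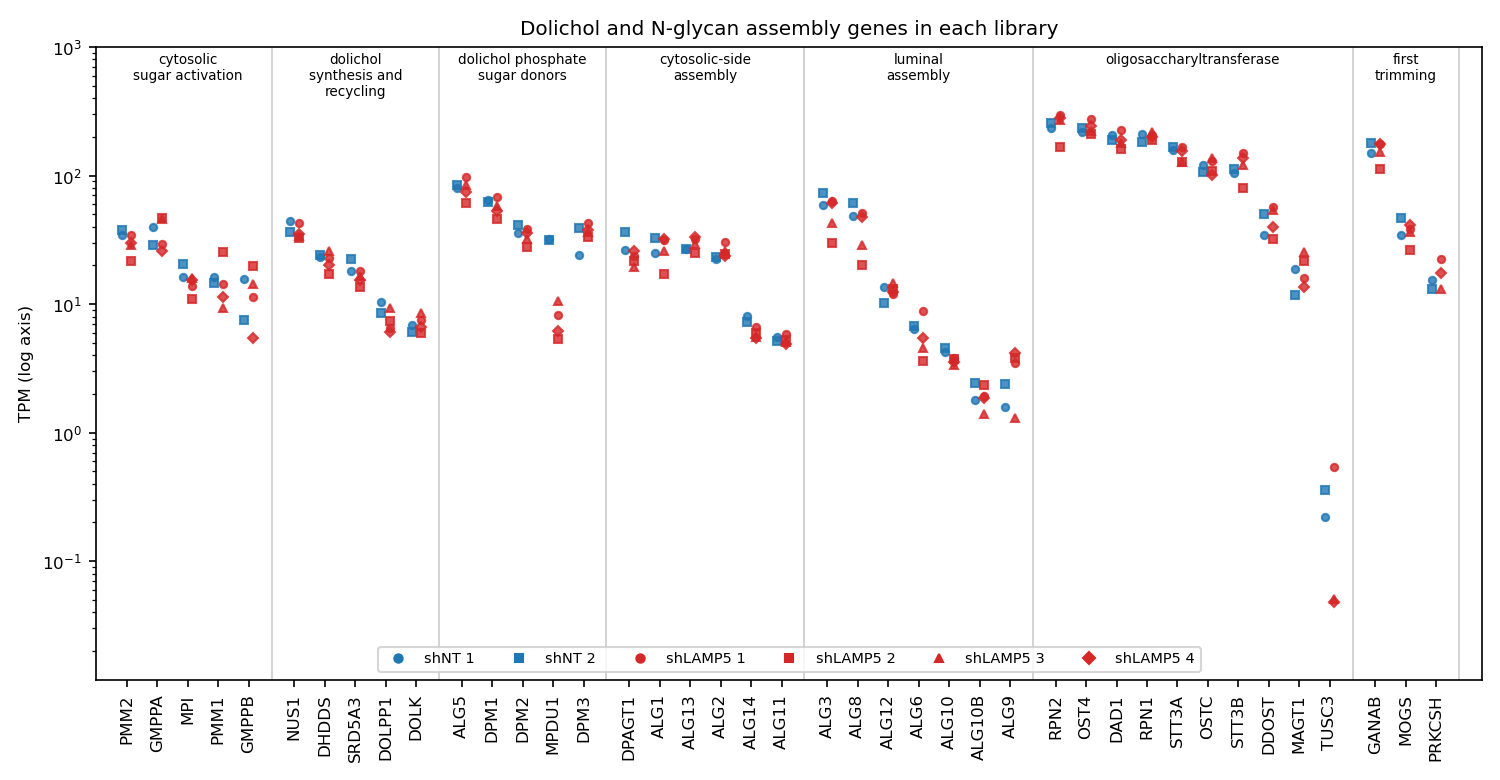
TPM of each member in each library on a log axis, grouped by role, with shNT in blue and shLAMP5 in red and the marker shape giving the replicate number. The 4 shLAMP5 points of MPDU1 (5.30 to 10.6 TPM) lie apart from its shNT points (32.3 and 31.7 TPM); PRKCSH and TUSC3 in shLAMP5 2, at 0.000117 and 0 TPM, are below the axis.

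MPDU1 (ENSG00000129255) measured 32.3 TPM in shNT 1 and 31.7 TPM in shNT 2, and 8.17, 5.30, 10.6 and 6.14 TPM in shLAMP5 1 to 4. No shLAMP5 library reached either control, and the highest of them, shLAMP5 3, was still far from the lower control. The shNT mean was 32 ± 0.438 TPM (SD, n = 2) and the shLAMP5 mean 7.56 ± 2.38 TPM (SD, n = 4), or 23.6% of it. The log2 fold change, taken as shLAMP5 minus shNT of log2(TPM + 1), was -1.99 (SE 0.27, 95% interval -2.61 to -1.36). That difference compares with a gap of 0.027 between the shNT libraries and a range of 0.89 among the shLAMP5 libraries on the same scale. It was the seventh lowest value of 13072 genes tested, of which 1.08% had a log2 fold change of -1 or lower. These are the values through which the gene was chosen. With any 1 library left out the value stayed between -2.15 and -1.85.

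MPDU1 stands between CD68, a macrophage glycoprotein of the LAMP family, and FXR2, an RNA-binding protein, with MPDU1-AS1 and SOX15 as its immediate neighbours in the RefSeq order. CD68 measured 85.2 TPM in both shNT libraries and 211, 107, 278 and 221 TPM in shLAMP5 1 to 4, a log2 fold change of 1.17 (SE 0.35, limma adjusted p 0.505). All 4 shLAMP5 values of CD68 lay above both controls, opposite in direction to MPDU1. FXR2 measured 22.7 and 21.2 TPM in shNT and 17.2 to 22.3 TPM in shLAMP5, a log2 fold change of -0.15 (SE 0.20), and its groups overlapped. SOX15 did not exceed 0.557 TPM in any library. The ratio of CD68 to MPDU1 was 2.64 and 2.69 in the shNT libraries and between 20.1 and 36.01 in the shLAMP5 libraries. Of the 31-base words in the GENCODE release 29 transcripts of MPDU1, 12.5% also occurred in transcripts of other genes, at most 3.66% in any 1 of them, FXR2. The label protocols do not state a strand-specific library.

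**Figure D2:**
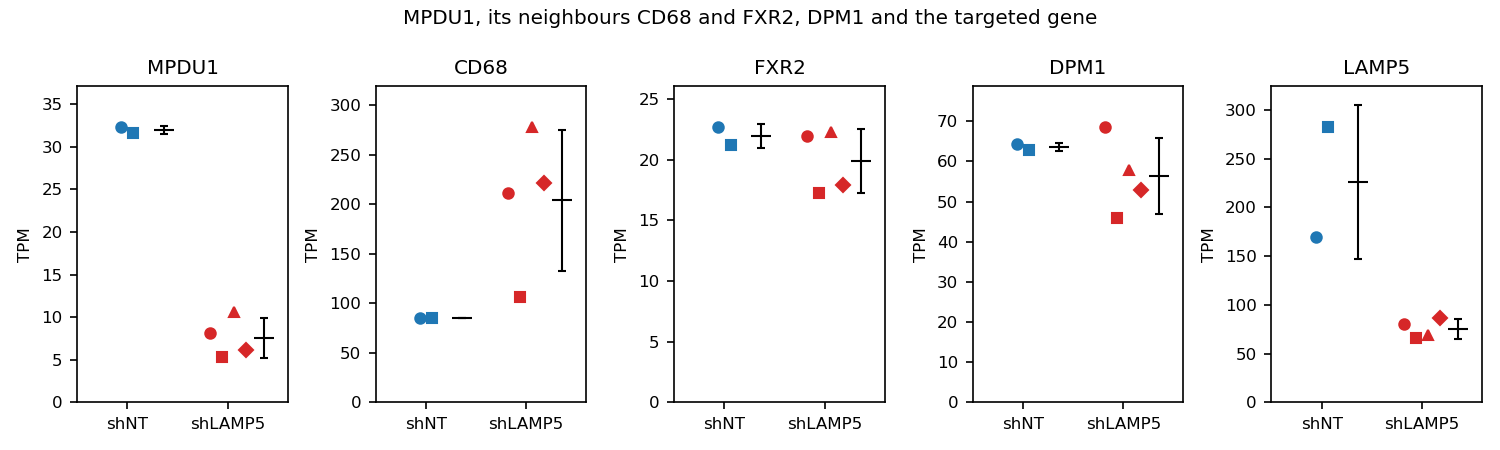
TPM in each library (blue shNT, red shLAMP5, marker shape by replicate number; black bars give the mean and SD, n = 2 and n = 4) for MPDU1, its neighbours CD68 and FXR2, its partner in mannose donor use DPM1, and the targeted gene LAMP5. MPDU1 and LAMP5 are lower in all shLAMP5 libraries, CD68 is higher in all of them, and the groups of FXR2 and DPM1 overlap.

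The enzymes that make the dolichol phosphate sugars whose use needs MPDU1 had values nearer zero. DPM1, the catalytic subunit of dolichol phosphate mannose synthase, measured 64.4 and 62.8 TPM in shNT and 68.5, 46.0, 57.9 and 53.0 TPM in shLAMP5 1 to 4. Its shLAMP5 1 value lay above both controls and the other 3 below, and the log2 fold change was -0.19 (SE 0.21). The stabilising subunits DPM2 and DPM3 had log2 fold changes of -0.21 (SE 0.20) and 0.29 (SE 0.24). DPM3 depended on the control: shNT 1, at 23.9 TPM, lay below every other library (33.3 to 42.9 TPM), and the value was 0.63 without shNT 2 and -0.049 without shNT 1. ALG5, which makes dolichol phosphate glucose and was the most abundant member of this step, measured 79.8 and 84.2 TPM in shNT and 97.3, 61.5, 84.6 and 75.1 TPM in shLAMP5, a log2 fold change of -0.061 (SE 0.22). The ratio of DPM1 to MPDU1 was 1.99 and 1.98 in the shNT libraries and 5.44 to 8.68 in the shLAMP5 libraries.

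Over all the members, 40 of 41 reached 1 TPM in at least 2 libraries and were tested. TUSC3 was the exception. No member passed an adjusted p of 0.05 with limma, and neither did any of the 13072 genes (0%). At an unadjusted p under 0.05, 1 member, MPDU1, was counted, against 8.97% of all genes, and the smallest unadjusted limma p of any other member was 0.0821, for DPAGT1. Log2 fold changes were within 0.5 of zero for 37 of 40 members, against 82.1% of all genes. Negative values were found for 25 of 40 members and for 50.7% of all genes, and the medians were -0.12 and -0.006. The median of the members was -0.048 without shLAMP5 2. The difference exceeded the range within both groups for 3 members, MPDU1, ALG14 and ALG10, against 7.89% of all genes, a share close to that of the members.

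The groups did not overlap for 7 of 40 members, against 21.8% of all genes. The shLAMP5 values were the lower ones for 6 of them, MPDU1, DPAGT1, MPI, SRD5A3, ALG14 and ALG10, against 13.5% of all genes, and the higher ones for ALG2 alone, against 8.25%. With all libraries and no rescaling, the share of lower members was near the background, and that of higher members, from 1 gene, was under it. The count of 6 became 14 without shNT 1, where the background was 25.6%, and 14 without shLAMP5 1, where it was 18.6%. In both settings the share of lower members was above the background. The count of 1 became 4 without shNT 1 (background 18.4%) or shLAMP5 2 (22.5%), and 2 without shNT 2 (15.9%) or shLAMP5 3 (9.01%). Under median scaling the count of lower members became 9 (background 14.4%) and under quantile normalization also 9 (14.7%), and under both ALG13 took the place of ALG2.

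**Figure D3:**
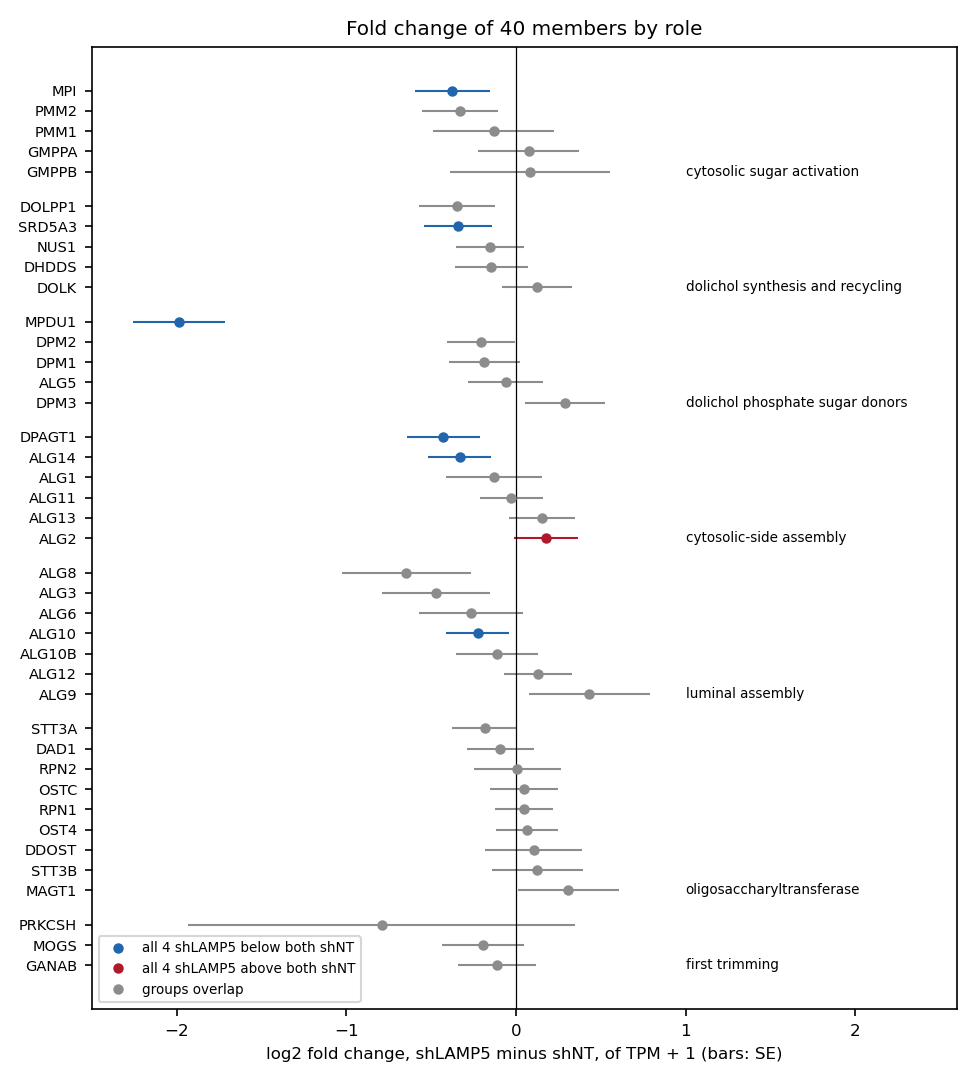
Log2 fold change of TPM + 1, shLAMP5 minus shNT, for the 40 members tested, by role, with bars of 1 SE from limma. Blue marks members whose shLAMP5 values are all below the shNT values and red the opposite; MPDU1 at -1.99 lies far from the rest, which fall between -0.79 and 0.43.

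In the activation of mannose, 3 of 5 members had negative values. MPI, which converts fructose 6-phosphate to mannose 6-phosphate, had a log2 fold change of -0.38 (SE 0.22) and PMM2, the main phosphomannomutase, -0.33 (SE 0.22). MPI and PMM2 share 26% and 27.3% of their 31-base words with other genes. GMPPA, the regulatory subunit of GDP-mannose pyrophosphorylase, measured 39.6 and 28.8 TPM in shNT and 29.4, 46.7, 45.5 and 25.7 TPM in shLAMP5 1 to 4, with a log2 fold change of 0.074 (SE 0.30). Its libraries fell into a higher set of shNT 1, shLAMP5 2 and shLAMP5 3 and a lower set of the other 3, across the groups. GMPPB, the catalytic subunit, was also highest in shLAMP5 2 and lowest in shLAMP5 4, with 15.8 and 7.54 TPM in shNT and 11.4, 19.96, 14.4 and 5.44 TPM in shLAMP5, a log2 fold change of 0.082 (SE 0.47). GMPPB shares 41.1% of its 31-base words with AMIGO3, so its level is uncertain. PMM1 was highest in shLAMP5 2 (25.3 TPM) and between 9.34 and 16.3 TPM elsewhere.

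For dolichol itself, 4 of 5 members had negative values, none beyond -0.35. NUS1, a subunit of the cis-prenyltransferase that builds the polyprenyl chain, measured 44.2 and 36.3 TPM in shNT and 42.9, 32.4, 34.1 and 35.0 TPM in shLAMP5, with overlapping groups and a log2 fold change of -0.15 (SE 0.20). The catalytic subunit DHDDS had -0.15 (SE 0.21). SRD5A3, the polyprenol reductase, measured 18.2 and 22.6 TPM in shNT and 13.6 to 18.0 TPM in shLAMP5 (-0.34, SE 0.20), with the highest shLAMP5 library just under the lower control. The kinase DOLK had 0.12 (SE 0.21) and the recycling phosphatase DOLPP1 -0.35 (SE 0.22). The 4 genes of this step whose windows hold the E-box, shown above, thus ranged from -0.34 to 0.12. The remaining members with an E-box, GMPPA, ALG1 and DDOST, had 0.074, -0.13 and 0.10.

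On the cytosolic face, DPAGT1, which starts the glycan and is the target of tunicamycin, measured 26.2 and 36.1 TPM in shNT and 23.6, 21.6, 19.5 and 26.0 TPM in shLAMP5. Its groups were separated only narrowly, shLAMP5 4 lying next to shNT 1, and the log2 fold change was -0.43 (SE 0.22), or -0.65 without shNT 1 and -0.20 without shNT 2. DPAGT1 shares 18.2% of its 31-base words with C2CD2L. The next step is run by ALG13 and its membrane anchor ALG14. ALG13 measured 26.7 and 26.8 TPM in shNT and 32.4, 25.02, 29.6 and 33.0 TPM in shLAMP5 (0.15, SE 0.19), while ALG14 measured 8.06 and 7.25 TPM in shNT and 5.41 to 6.58 TPM in shLAMP5 (-0.33, SE 0.19). The mannosyltransferases ALG1, ALG2 and ALG11 had -0.13, 0.18 and -0.028. ALG1 and ALG11 share 50.7% and 43.5% of their 31-base words with other genes, and their levels are uncertain.

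Luminal assembly is where mannose and glucose are taken from the dolichol phosphate donors. ALG3, the first luminal mannosyltransferase, measured 59.1 and 73.4 TPM in shNT and 63.5, 30.1, 42.6 and 60.8 TPM in shLAMP5 1 to 4, a log2 fold change of -0.47 (SE 0.32). ALG8, which adds the second glucose, was also lowest in shLAMP5 2 and highest in shNT 2, with 48.3 and 61.6 TPM in shNT and 51.6, 20.0, 28.7 and 47.6 TPM in shLAMP5 (-0.65, SE 0.38). For both genes shLAMP5 2 and shLAMP5 3 were low, and shLAMP5 1 and shLAMP5 4 lay within or next to the controls. ALG6, the first glucosyltransferase, was likewise lowest in shLAMP5 2 and shLAMP5 3 (3.61 and 4.55 TPM) but highest in shLAMP5 1 (8.86 TPM), with -0.26 (SE 0.31). Terminal glucose is added by ALG10 (-0.23, SE 0.19) and its close copy ALG10B (-0.11, SE 0.24). ALG10 shares 68.2% of its 31-base words with other genes, and 42.6% with ALG10B, so its level and the split between ALG10 and ALG10B are uncertain. ALG9 had 0.43 (SE 0.36) from values of 1.30 to 4.17 TPM, and shares 27.7% of its 31-base words with other genes.

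ALG12, the mannosyltransferase with the ERSE match, measured 13.6 and 10.1 TPM in shNT and 11.9, 13.1, 14.5 and 12.4 TPM in shLAMP5 (0.13, SE 0.20). CRELD2 next to it measured 98.2 and 35.7 TPM in shNT and 59.8, 114, 139 and 41.9 TPM in shLAMP5. Both genes were highest in shLAMP5 3 and lowest in shNT 2. ALG12 shares 37.2% of its 31-base words with other transcripts, those of CRELD2 among them, so its level is uncertain.

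Oligosaccharyltransferase, the most abundant machinery of the set, summed to 1311 and 1314 TPM over its 10 listed subunits in shNT and to 1528, 1097, 1353 and 1354 TPM in shLAMP5 1 to 4. The group means, 1312 ± 1.88 TPM (SD, n = 2) and 1333 ± 177 TPM (SD, n = 4), differed by less than the spread of the shLAMP5 libraries. Its 9 tested members had log2 fold changes between -0.18 and 0.31, with a median of 0.049, and the groups of all 9 overlapped. RPN2 measured 235 and 257 TPM in shNT and 297, 168, 269 and 278 TPM in shLAMP5, with shLAMP5 2 below and the other 3 above both controls. DAD1 (-0.091), RPN1 (0.049), OST4 (0.065), OSTC (0.048) and DDOST (0.10) were similarly close to zero.

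The catalytic subunits STT3A, which serves the complex at the translocon, and STT3B, which also acts on finished proteins, varied in their balance between libraries. The ratio of STT3B to STT3A was 0.661 and 0.669 in shNT and 0.892, 0.622, 0.939 and 0.889 in shLAMP5 1 to 4. It was thus higher than in the controls in 3 of 4 shLAMP5 libraries and lower in shLAMP5 2. The log2 fold changes of the genes were 0.13 (SE 0.27) for STT3B and -0.18 (SE 0.19) for STT3A. The oxidoreductase subunits of the STT3B complex are alternatives, and MOLM-13 cells used MAGT1, at 11.8 to 25.5 TPM, over TUSC3, at 0 to 0.542 TPM. TUSC3 was listed at 0 in shLAMP5 2. MAGT1 had a log2 fold change of 0.31 (SE 0.30).

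Of the trimming enzymes, GANAB measured 150 and 179 TPM in shNT and 175, 113, 153 and 175 TPM in shLAMP5 (-0.11, SE 0.23), and MOGS, the first glucosidase, had -0.19 (SE 0.24). PRKCSH, the regulatory subunit of glucosidase II, measured 15.5 and 13.1 TPM in shNT and 22.4, 0.000117, 13.1 and 17.3 TPM in shLAMP5 1 to 4. Whether the near-zero value in shLAMP5 2 is a failed estimate was not tested, and the log2 fold change of -0.79 (SE 1.14) became 0.26 without that library. Of 6227 genes with at least 10 TPM in the other 5 libraries, 2 lay under 0.01 TPM in shLAMP5 2, PRKCSH and a gene named only by its identifier.

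Library shLAMP5 2 held the lowest value of the 6 for 23 of 40 members (57.5%), against 44.1% of all genes. The members together summed to 2222 and 2311 TPM in shNT and to 2497, 1789, 2192 and 2228 TPM in shLAMP5 1 to 4. The median deviation of the members from the shNT mean, on the log2(TPM + 1) scale, was -0.33 in shLAMP5 2, -0.12 in shLAMP5 3, -0.11 in shLAMP5 4 and 0.086 in shLAMP5 1.

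**Figure D4:**
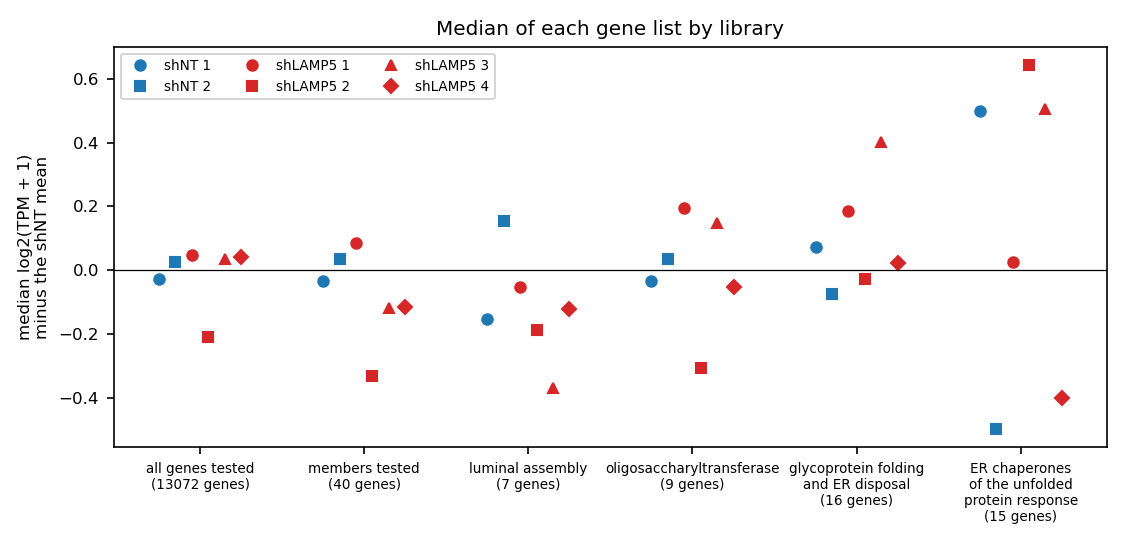
Median of log2(TPM + 1) minus the shNT mean over the genes of each list, by library (blue shNT, red shLAMP5, marker shape by replicate number). The members and the transferase subunits are lowest in shLAMP5 2, at -0.33 and -0.31. The list labelled ER chaperones, which also holds transcription factors of the unfolded protein response, is highest there, at 0.64, and lowest in shNT 2, at -0.50.

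Genes around the pathway were taken from 7 further lists with 97 genes, all tested. None passed limma's adjusted p of 0.05, and at an unadjusted p under 0.05 there were 3 with higher and 1 with lower values, against 3.72% and 5.25% of all genes. The lists that supply the pathway lay near zero. The 10 genes of the mevalonate list had a median log2 fold change of -0.0076, with MVK at 0.41 and MVD at 0.36 and ACAT2 at -0.35 and PMVK at -0.25. This route makes the precursor of dolichol, but the listed FDFT1 and GGPS1 use that precursor for other products.

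The 12 other N-glycan genes of the ER had a median of -0.046 and included GNPNAT1, the gene with the largest log2 fold change in size of the 97. GNPNAT1, which makes an intermediate of UDP-N-acetylglucosamine, measured 20.9 and 16.0 TPM in shNT and 10.8, 9.10, 7.73 and 8.33 TPM in shLAMP5, all below both controls, with a log2 fold change of -0.96 (SE 0.21, limma adjusted p 0.491). GFPT1, the rate-limiting enzyme earlier in the same route, measured 14.3 and 10.8 TPM in shNT and 18.0, 20.5, 18.2 and 15.3 TPM in shLAMP5, all above both controls (0.49, SE 0.21, limma adjusted p 0.544). Neighbouring steps thus had values of opposite sign. DHRSX, of polyprenol conversion, had 0.24 (SE 0.20).

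Among 13 genes of other routes that use dolichol phosphate mannose, which build GPI anchors and O- and C-mannose, the median was -0.011. Not every listed gene, PIGN and PIGO among them, encodes an enzyme that takes the donor itself. POMT1 had 0.45 and PIGZ 0.27, and DPY19L1 had -0.58 and PIGX -0.26. The listed genes of these routes thus had 6 positive and 7 negative values.

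Downstream, glycoprotein folding and ER disposal had 11 of 16 positive values and a median of 0.23, and Golgi processing 11 of 16 and a median of 0.19. Over all genes tested, 6439 of 13072 values were positive, with a median of -0.006. OS9, a lectin of ER-associated degradation, measured 140 and 130 TPM in shNT and 189, 196, 238 and 199 TPM in shLAMP5, all above both controls (0.60, SE 0.18, limma adjusted p 0.505). EDEM2, a mannosidase of the same route, had 0.38, and the cargo receptor pair MCFD2 and LMAN1 had -0.45 and -0.21. In the Golgi, the branching enzymes MGAT4B and MGAT1 had 0.63 and 0.49, the sialyltransferase ST3GAL4 -0.56 and the UDP-galactose carrier SLC35A2 -0.19. The 15 translocon and signal peptidase genes had a median of 0.11, with SEC62 at 0.24, SSR4 at 0.25, SSR3 at -0.30 and SSR2 at -0.13.

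Genes listed as ER chaperones of the unfolded protein response had 12 of 15 positive values, against 6439 of 13072 over all genes tested, and a median of 0.22. The list also holds transcription factors of that response, XBP1, ATF4 (-0.21) and DDIT3 (0.65). The list median in single libraries ranged from -0.50 to 0.64 around the shNT mean. HSPA5, the major ER chaperone, measured 642 and 306 TPM in shNT and 536, 844, 786 and 374 TPM in shLAMP5 1 to 4 (0.44, SE 0.40). The high libraries were shNT 1, shLAMP5 2 and shLAMP5 3, as for GMPPA, and the lowest were shNT 2 and shLAMP5 4. DNAJC3 had 0.33, PDIA6 -0.46 and XBP1 -0.35. The shNT libraries, far apart for HSPA5, were close for MPDU1 at 32.3 and 31.7 TPM.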

How the data were processed

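The authors deposited 1 table of 39771 Ensembl gene rows by 6 libraries. Its values were read as TPM because the deposited columns hold fractional numbers whose sums run from 897026 to 912565. They were made with kallisto on hg19, per the submitters' processing notes, which name no version, transcript set or filter. A TPM value holds no read number, so no count test and no counting interval was possible, and reads of near-identical or overlapping genes may be split between them. Groups and replicate numbers were taken from the titles (2 shNT, 4 shLAMP5).

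Symbols came from a gene name table (all 41 members matched). The fit was limma (3.58.1, R 4.3.3) on log2(TPM + 1), which understates the change of low genes, with the prior variance following the mean level. It covered the 13072 genes that reached 1 TPM in 2 or more libraries, with Benjamini-Hochberg adjustment over all of them. The code was also run on simulated data with independent noise of the same spread for every gene. Those data lack the differences between libraries seen here, so the run does not bear on their effect. Tables were made with Python 3.11.15, pandas 2.3.3 and numpy 2.4.6, and figures with matplotlib 3.10.9. Sharing of sequence was counted as 31-base words of GENCODE release 29 transcripts, which may differ from the authors' set.

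The members and lists were chosen with earlier results of these data known. Values of every library are given for MPDU1, for members with groups that do not overlap and a log2 fold change of at least 0.5 in size, for members at an unadjusted p under 0.05 and for the most abundant member of each role, and from each further list up to 2 genes per direction with the smallest p. Some genes that this rule would name are not reported here. Other members shown in full, and CRELD2, were chosen after their values were seen. Alternatives were other pseudocounts, filters and scalings, each library left out, and the replicate number as a block.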

Additional observations from a re-analysis of the deposited data

Results flagged for a closer look

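In the group of 4 shLAMP5 libraries, shLAMP5 2 lay far below the other 3 for PRKCSH (0.000117 TPM, with a gap to the nearest library of 0.839 of the whole range on the log2(TPM + 1) scale) and for RPN2 (168 TPM, with a gap of 0.8294 of the range). The threshold for 4 samples flags about 1 in 20 groups by chance, and 40 members were examined.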

How the results depend on the processing

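The log2 fold change of MPDU1 was -1.58 with a pseudocount of 5, as a larger pseudocount shrinks it, and -2.12 with 0.1; with each library left out it ranged from -2.15 to -1.85. The median of the members ranged from -0.18 to -0.048 with 1 library left out. Members with all shLAMP5 libraries below the controls then numbered 6 to 14, and above them 1 to 4. With all libraries the shares over all genes were 13.5% and 8.25%, and they rose in the settings given above. Leaving a library out cannot create an overlap, but how far this accounts for the member counts was not tested. No gene passed the adjusted threshold except 14 with no filter on low values and 16 with the replicate block. MPDU1 was 1 of those 16, with a log2 fold change of -2.12, but it was chosen through this same contrast, so its passing adds no support. In the block fit, shLAMP5 3 and shLAMP5 4 have no shNT library of the same number. Its fold changes therefore rest on libraries 1 and 2 of each group, which leaves little from which to estimate the residual spread. Why genes passed in these settings was not tested. The replicate numbers are not known to pair libraries: the deviations of same-numbered libraries from their group means correlated at -0.52 and -0.47 across genes, which are not independent replicates. Deviations of shNT 1 correlated at 0.47 with shLAMP5 2, 0.28 with shLAMP5 3 and -0.52 with shLAMP5 4. Those of shNT 2 had the opposite signs, as the shNT mean lies midway between its libraries. This division of libraries ran across the groups over all genes tested, and its origin was not tested. Over 13 alternatives the other 39 members gave 499 values, of which 490 lay within 1 replicate SD of the value reported and 35 changed sign. Settings that changed only the filter on low values cannot move a fold change, so their values match by construction. Unknown depth leaves members with a few TPM least certain.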
